A study of Mus musculus with 18 samples.

Results

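The genes described here are 10 mouse genes of the tumour necrosis factor (TNF) superfamily and its receptor superfamily that act as costimulators or death receptors on T cells: the receptors Tnfrsf4, Tnfrsf9, Tnfrsf18, Cd27 and Fas and the ligands Fasl, Cd40lg, Tnfsf8, Tnfsf11 and Tnfsf14. They were chosen by name, and every probe set annotated to one of these symbols alone was read, which gave 15 probe sets for the 10 genes out of 18193 genes measured. RNA of CD4 T cells, taken with magnetic beads from spleens of C57BL/6 mice aged 9 to 15 weeks, was hybridised to Affymetrix arrays, 3 for each of 6 groups. Wild-type (WT), Gli2A Tg and Gli2R Tg cells were profiled either fresh and unstimulated, called resting here, or after 6 h with anti-CD3 and anti-CD28, antibodies that engage the antigen receptor complex and the costimulator CD28. Gli2A and Gli2R are transgenes for activator and repressor forms of Gli2, a transcription factor through which Hedgehog signals reach the genome. The promoter of each transgene, the number of founder lines and whether the 3 arrays of a group came from separate mice are not given in the sources used here. P-values therefore measure only the spread between these arrays. The resting samples were not cultured for 6 h without antibody, so stimulation and time in culture cannot be told apart.

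TNF superfamily ligands are trimeric proteins, mostly on cell surfaces, that cluster their receptors. Costimulatory receptors such as OX40 (Tnfrsf4), 4-1BB (Tnfrsf9), GITR (Tnfrsf18) and CD27 recruit TRAF adaptors and activate NF-kB, which supports survival and cytokine production after antigen recognition. Fas instead carries a death domain that recruits and activates caspase-8, and its ligand FasL on activated T cells can kill Fas-bearing cells. T cells also carry ligands of the family, such as CD40L (Cd40lg), which licenses B cells and dendritic cells, CD30L (Tnfsf8), RANKL (Tnfsf11), which drives osteoclast formation and dendritic cell survival, and LIGHT (Tnfsf14).

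Levels below are log2 of the deposited intensity plus 16 after quantile normalization, and each gene is read from its brightest probe set unless another is named. A gene was called when its limma adjusted p, corrected over all 18193 genes, was under 0.05. Ptch1, a direct Hedgehog target, checked the Gli2A Tg label: its mean level was 13.49 in resting Gli2A Tg cells, against 10.38 in WT and 10.40 in Gli2R Tg cells at rest, and the 3.11 difference between Gli2A Tg and WT was called (adjusted p = 9.42e-08). Ptch1 does not tell Gli2R Tg from WT cells (difference 0.02 at rest, adjusted p = 0.984, and -0.06 after stimulation, 0.954), so those labels were not checked. T cell markers were bright on all arrays, with summed intensities over 7 genes of 66588 to 96152 in resting and 40697 to 49446 in stimulated cells. Resting preparations also held myeloid RNA: the summed intensity of 9 myeloid markers was 40974 to 59844 in WT, 67801 to 74458 in Gli2A Tg cells and 29885 to 38436 in Gli2R Tg cells, against 823 to 3446 on the stimulated arrays. Of these 9 markers, 8 were called lower after stimulation in each genotype, and the part of this shift in the values below was not tested for stimulation, because it separates the same arrays. Summed erythroid intensity (6 markers) at rest was 15272 to 22985 in WT, 21090 to 54871 in Gli2A Tg and 2782 to 7312 in Gli2R Tg cells. On the stimulated arrays it was 663 to 3370, and its part in the values below was not tested. In such bulk samples, fewer cells of a type and less RNA per cell cannot be told apart. Array 3 of resting Gli2A Tg stood apart from the rest on the second principal component, and array 2 of stimulated Gli2A Tg on the third, with an actin 3' to 5' signal ratio of 3.0 against at most 1.82 elsewhere. Calls that change without both of these arrays are given with and without them. The Gapdh 3' to 5' signal ratio, a sign of RNA quality and of labelling, was 0.709 to 1.13 on the 9 resting arrays and 1.71 to 2.79 on the 9 stimulated arrays. It separates the same arrays as stimulation, and its part in the stimulation differences was not tested.

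The genes lie on 7 chromosomes of the reference build GRCm38.p6, and 4 of them on chromosome 4. There Tnfrsf4 (chr4:156013595-156016613) and Tnfrsf18 (chr4:156026322-156028894) are near neighbours, 9708 bases apart with 1 gene between them. Tnfrsf9 (chr4:150920155-150946104) and Tnfsf8 (chr4:63831202-63861508) lie elsewhere on that chromosome. Of the 6 genes called higher with stimulation in all 3 genotypes, Tnfsf8 has only 26 promoter bases outside the annotated gene and is not shown. The RefSeq promoter stretches of the 5 others, and of Cd27, which did not rise, are shown. Each is the part of the window before the start site that lies outside the annotated gene, so those of Tnfrsf4 and Cd27 are shorter, read 5′ to 3′ on the gene's strand, and capitals mark matches, on either strand, to the NFAT core motif GGAAA, bound by a factor family that the antigen receptor activates.
Tnfrsf4, chr4:156013445-156013594, plus strand: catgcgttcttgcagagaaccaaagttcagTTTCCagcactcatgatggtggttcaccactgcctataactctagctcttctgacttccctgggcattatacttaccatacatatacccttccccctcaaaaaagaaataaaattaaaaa
Tnfrsf9, chr4:150919905-150920154, plus strand: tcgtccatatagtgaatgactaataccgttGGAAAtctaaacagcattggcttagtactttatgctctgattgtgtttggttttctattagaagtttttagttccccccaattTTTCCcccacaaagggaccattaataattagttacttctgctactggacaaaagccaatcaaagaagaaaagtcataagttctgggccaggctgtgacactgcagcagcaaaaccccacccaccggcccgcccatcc
Tnfrsf18, chr4:156026072-156026321, plus strand: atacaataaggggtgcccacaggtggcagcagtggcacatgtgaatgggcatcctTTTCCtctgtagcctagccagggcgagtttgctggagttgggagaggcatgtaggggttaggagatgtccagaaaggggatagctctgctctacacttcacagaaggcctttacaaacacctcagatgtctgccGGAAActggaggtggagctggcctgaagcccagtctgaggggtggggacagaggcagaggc
Fasl, chr1:161788496-161788745, minus strand: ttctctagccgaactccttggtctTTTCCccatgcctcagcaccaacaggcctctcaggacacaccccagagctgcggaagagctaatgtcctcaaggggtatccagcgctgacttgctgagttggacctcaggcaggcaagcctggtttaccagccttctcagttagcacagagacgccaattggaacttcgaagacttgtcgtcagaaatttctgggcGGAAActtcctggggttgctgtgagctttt
Tnfsf11, chr14:78308044-78308293, minus strand: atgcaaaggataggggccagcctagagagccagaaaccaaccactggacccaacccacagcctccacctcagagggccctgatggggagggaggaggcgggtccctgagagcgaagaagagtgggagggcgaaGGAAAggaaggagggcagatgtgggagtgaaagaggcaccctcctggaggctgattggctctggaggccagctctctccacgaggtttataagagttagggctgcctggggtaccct
Cd27, chr6:125237137-125237277, minus strand: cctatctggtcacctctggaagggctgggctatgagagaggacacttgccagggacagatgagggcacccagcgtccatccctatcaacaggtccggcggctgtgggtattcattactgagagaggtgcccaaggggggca
In the full 250-base windows before the start, the NFAT core was found in 10 of 10 windows of the member genes and in 55.6% of all 32851 RefSeq promoter windows of that length. Tnfrsf9 has more than 1 window among these 10, and Cd40lg has none. The windows of Cd27 and Tnfsf8 are among them. The Cd27 match is not within the stretch shown, so the capitals do not set Cd27 apart from the other genes. The AP-1 motif TGANTCA was found in 3 of the 10 windows, against 6.75% of all windows, and the NF-kB motif in 1 of the 10, against 7.25%. Fas and Tnfsf14 each held an AP-1 match upstream of the gene. These matches describe letters only.

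Stimulation raised most of the 10 genes in every genotype. In WT cells 8 of the 10 rose and 0 fell, against 19.7% of all genes called higher and 22% called lower. Tnfsf14 is among these 8, but its second probe set fell in each genotype, as given below. In Gli2A Tg cells 7 rose and 1 fell, against 20.2% and 22.8% of all genes. In Gli2R Tg cells 6 rose and 1 fell, against 19.8% and 22.5% of all genes. The median log2 difference over the 10 genes was 1.92 in WT, 1.82 in Gli2A Tg cells and 1.14 in Gli2R Tg cells, where that over all genes was within 0.01 of 0. The 6 genes called higher in all 3 genotypes were Tnfrsf4, Tnfrsf9, Tnfrsf18, Fasl, Tnfsf8 and Tnfsf11. These 3 comparisons use separate arrays for each genotype.

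**Figure D1:**
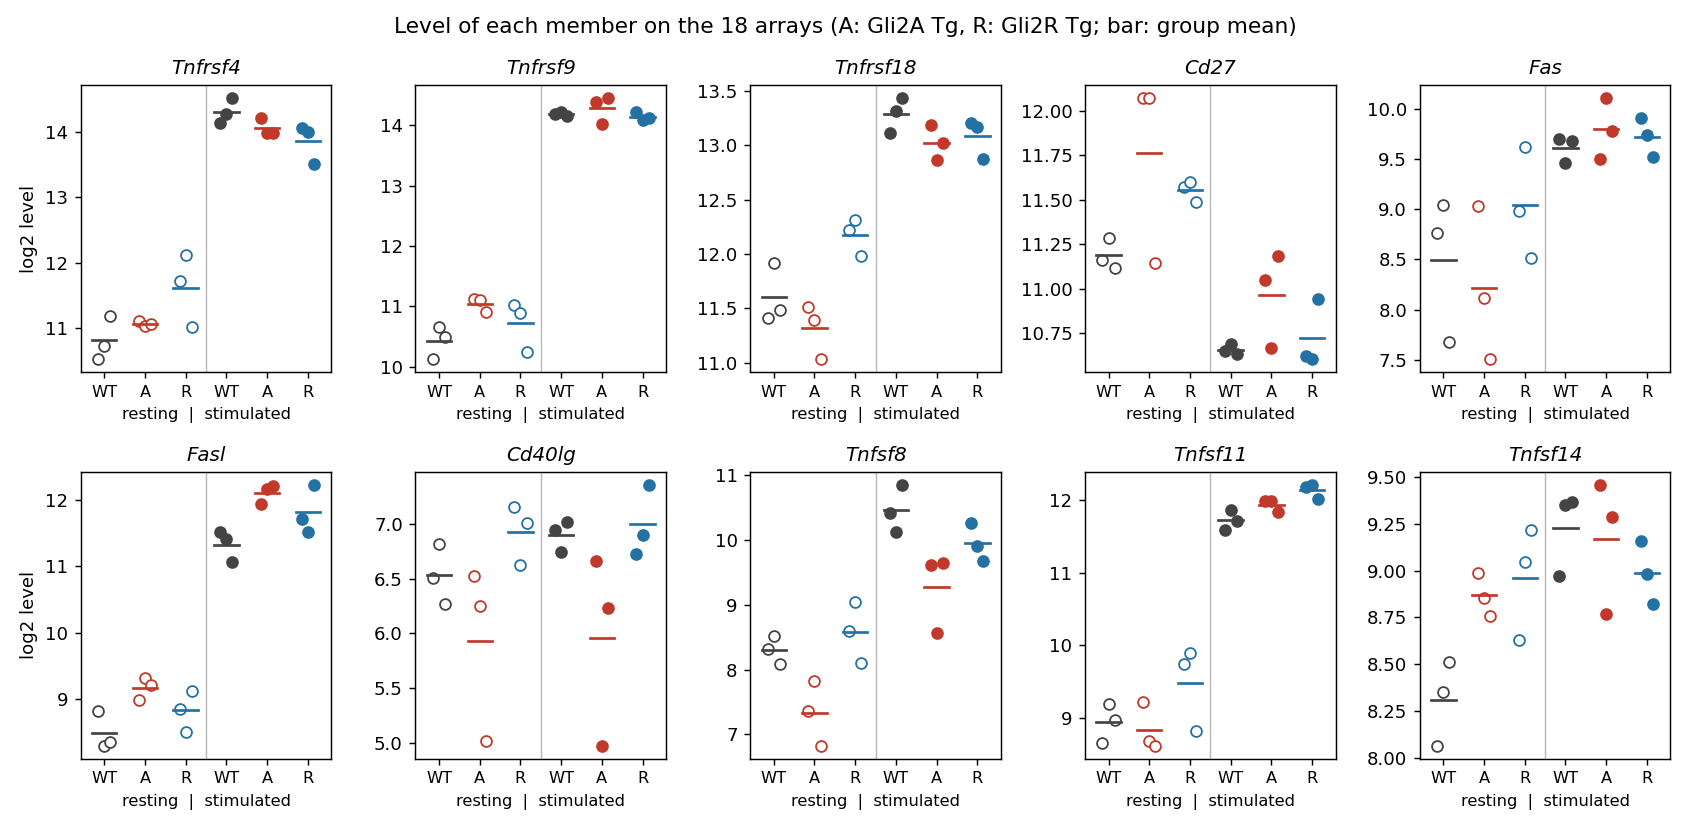
Level (log2 of intensity plus 16, quantile normalized) of each gene on the 18 arrays, with 1 point per array, open for resting and filled for stimulated cells, and a bar at each group mean; the vertical scale differs between panels. Tnfrsf9 goes from 10.13 to 11.13 on resting arrays to 14.02 to 14.45 on stimulated arrays, while resting and stimulated Cd40lg arrays overlap in each genotype.

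Tnfrsf4 encodes OX40, a receptor of activated T cells. Its level was 10.53, 10.74 and 11.19 in resting WT and 14.14, 14.26 and 14.51 in stimulated WT cells. It was 11.11, 11.04 and 11.07 in resting and 14.20, 13.98 and 13.99 in stimulated Gli2A Tg cells, and 11.72, 12.11 and 11.03 in resting and 14.05, 14.00 and 13.51 in stimulated Gli2R Tg cells. Resting and stimulated arrays did not overlap in any genotype, and resting Gli2R Tg arrays 1 and 2 were the highest of the resting arrays. The stimulation difference was 3.48 ± 0.24 (SE, n = 3 and 3) or 11.2-fold in WT (limma adjusted p = 3.06e-08), 2.98 or 7.90-fold in Gli2A Tg cells (1.25e-07) and 2.23 or 4.70-fold in Gli2R Tg cells (2.42e-06), with the same SE in each.

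Tnfrsf9 encodes 4-1BB, another inducible receptor, and had the largest stimulation difference of the 10 genes in each genotype. Its level was 10.13, 10.66 and 10.49 in resting and 14.18, 14.22 and 14.16 in stimulated WT cells. In Gli2A Tg cells it was 11.13, 11.11 and 10.90 resting and 14.38, 14.02 and 14.45 stimulated, and in Gli2R Tg cells 11.03, 10.89 and 10.25 resting and 14.22, 14.09 and 14.12 stimulated. All 9 stimulated arrays lay above every resting array, and the stimulated arrays of the 3 genotypes overlapped. The difference was 3.76 ± 0.19 or 13.6-fold in WT, 3.24 or 9.44-fold in Gli2A Tg cells and 3.42 or 10.7-fold in Gli2R Tg cells (limma adjusted p = 3.05e-09, 7.7e-09 and 4.8e-09).

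Tnfrsf18 encodes GITR, which regulatory T cells carry at rest and other T cells gain on activation. Its level was 11.42, 11.92 and 11.49 in resting and 13.12, 13.32 and 13.44 in stimulated WT cells. It was 11.52, 11.40 and 11.03 in resting and 13.19, 12.87 and 13.02 in stimulated Gli2A Tg cells, and 12.22, 12.31 and 11.98 in resting and 13.21, 13.17 and 12.88 in stimulated Gli2R Tg cells. Stimulated arrays lay above resting arrays in each genotype, and all 3 resting Gli2R Tg arrays lay above the 6 other resting arrays. The gene rose by 1.68 ± 0.18 (3.21-fold) in WT, 1.71 (3.27-fold) in Gli2A Tg cells and 0.91 (1.88-fold) in Gli2R Tg cells (limma adjusted p = 1.72e-06, 1.38e-06 and 0.000573). Of 6 regulatory T cell markers, 3 rose and 0 fell in WT, 2 rose and 0 fell in Gli2A Tg cells, and 3 rose and 2 fell in Gli2R Tg cells. Their summed intensity was 4519 to 5426 in resting and 12583 to 13959 in stimulated WT cells, 4637 to 5840 and 12079 to 12507 in Gli2A Tg cells, and 3947 to 9475 and 8454 to 12600 in Gli2R Tg cells. Il2ra and Ctla4, which activated T cells also gain, rose in all 3 genotypes, by 3.62 and 2.45 in WT cells. Foxp3, the defining factor of regulatory T cells, differed by -0.43 in WT (limma adjusted p = 0.253) and -0.71 in Gli2A Tg cells (0.0578) and fell by 0.94 in Gli2R Tg cells (0.0138). The part of regulatory T cells in the Tnfrsf18 rise was not tested.

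Cd27, a receptor that naive T cells already carry, moved the other way. Its level was 11.16, 11.29 and 11.11 in resting and 10.65, 10.69 and 10.63 in stimulated WT cells, groups that did not overlap. Resting Gli2A Tg cells had 12.07, 12.07 and 11.14 and stimulated ones 11.05, 10.67 and 11.18, so that the third resting array, one of those that stood apart, lay among the stimulated arrays. Gli2R Tg cells had 11.57, 11.60 and 11.48 resting and 10.62, 10.60 and 10.94 stimulated. The gene fell by 0.80 ± 0.21 on the log2 scale in Gli2A Tg cells (limma adjusted p = 0.00658) and by 0.83 in Gli2R Tg cells (0.0051), while the WT difference of -0.53 was not called (0.0585). That WT difference lay near the threshold: it was called in 7 of 31 alternative settings, among them the 6 WT arrays alone (adjusted p = 0.0142) and the fit without both arrays that stood apart (0.00185), over a range of 0.00185 to 0.204. Fitting the 6 Gli2A Tg arrays alone ended the Gli2A Tg call (adjusted p = 0.0813).

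Fas, the death receptor, varied more among resting arrays than the other receptors, with a standard deviation of 0.72 in resting WT against 0.13 in stimulated WT cells. Its level was 8.76, 9.05 and 7.67 in resting and 9.70, 9.46 and 9.68 in stimulated WT cells, 9.03, 8.11 and 7.51 in resting and 9.50, 10.11 and 9.78 in stimulated Gli2A Tg cells, and 8.99, 9.62 and 8.51 in resting and 9.91, 9.74 and 9.52 in stimulated Gli2R Tg cells. Only in Gli2R Tg cells did the resting and stimulated arrays overlap. The gene rose by 1.12 ± 0.39 (2.17-fold, limma adjusted p = 0.0312) in WT and by 1.58 (2.99-fold, 0.00372) in Gli2A Tg cells, and its difference of 0.68 in Gli2R Tg cells was not called (0.182). The WT call was lost without resting WT array 3 (adjusted p = 0.165), stimulated WT array 1 (0.0764) or stimulated WT array 3 (0.0735), and the Gli2A Tg call without both arrays that stood apart, where the difference was 1.07 (0.0753).

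Fasl, the ligand of Fas, rose in all genotypes by nearly the same amount. Its level was 8.82, 8.30 and 8.35 in resting and 11.51, 11.41 and 11.07 in stimulated WT cells, 8.99, 9.32 and 9.21 in resting and 11.94, 12.17 and 12.20 in stimulated Gli2A Tg cells, and 8.86, 8.51 and 9.13 in resting and 11.72, 11.52 and 12.23 in stimulated Gli2R Tg cells. Every stimulated array lay above every resting array. The difference was 2.84 ± 0.21 (7.15-fold) in WT, 2.93 (7.62-fold) in Gli2A Tg cells and 2.99 (7.94-fold) in Gli2R Tg cells (limma adjusted p = 6.56e-08, 4.46e-08 and 3.67e-08).

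Tnfsf11, which encodes RANKL, rose on a similar scale. Its level was 8.65, 9.19 and 8.97 in resting and 11.59, 11.86 and 11.71 in stimulated WT cells, 9.22, 8.68 and 8.61 in resting and 11.98, 11.98 and 11.83 in stimulated Gli2A Tg cells, and 9.74, 9.89 and 8.82 in resting and 12.18, 12.21 and 12.02 in stimulated Gli2R Tg cells. The stimulated Gli2R Tg arrays were the 3 highest of the 18. The gene rose by 2.78 ± 0.24 (6.89-fold) in WT, 3.09 (8.53-fold) in Gli2A Tg cells and 2.66 (6.30-fold) in Gli2R Tg cells (limma adjusted p = 2.68e-07, 8.46e-08 and 4.07e-07).

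Tnfsf8, which encodes CD30L, also rose in each genotype but was lowest in Gli2A Tg cells in both conditions. Its level was 8.31, 8.52 and 8.08 in resting and 10.42, 10.13 and 10.86 in stimulated WT cells, 7.35, 7.83 and 6.82 in resting and 9.62, 8.56 and 9.65 in stimulated Gli2A Tg cells, and 8.60, 9.05 and 8.10 in resting and 10.27, 9.92 and 9.67 in stimulated Gli2R Tg cells. The 3 Gli2A Tg arrays lay below the 3 WT arrays and below the 3 Gli2R Tg arrays in either condition. The stimulation difference was 2.16 ± 0.33 (4.47-fold) in WT, 1.94 (3.84-fold) in Gli2A Tg cells and 1.37 (2.59-fold) in Gli2R Tg cells (limma adjusted p = 8.14e-05, 0.000204 and 0.0035).

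Tnfsf14 and Cd40lg gave no shared rise. Tnfsf14, which encodes LIGHT, had levels of 8.06, 8.35 and 8.51 in resting and 8.97, 9.35 and 9.37 in stimulated WT cells, and it rose there by 0.92 ± 0.20 (1.89-fold, limma adjusted p = 0.00175). In Gli2A Tg cells it ranged from 8.76 to 8.99 resting and from 8.77 to 9.46 stimulated, a difference of 0.30 (0.261), and in Gli2R Tg cells from 8.63 to 9.21 and from 8.82 to 9.16, a difference of 0.02 (0.940). Resting and stimulated arrays overlapped in both transgenic genotypes. Cd40lg was read from a dim probe set: its level lay between 4.97 and 7.36 on the 18 arrays, where the mean level of the median gene was 7.06 and that of the gene at the 25th percentile 5.37. Its differences of 0.37 in WT, 0.02 in Gli2A Tg cells and 0.06 in Gli2R Tg cells were not called (limma adjusted p = 0.510, 0.971 and 0.920). No change of Cd40lg was called with this probe set, which does not show that its RNA was steady.

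**Figure D2:**
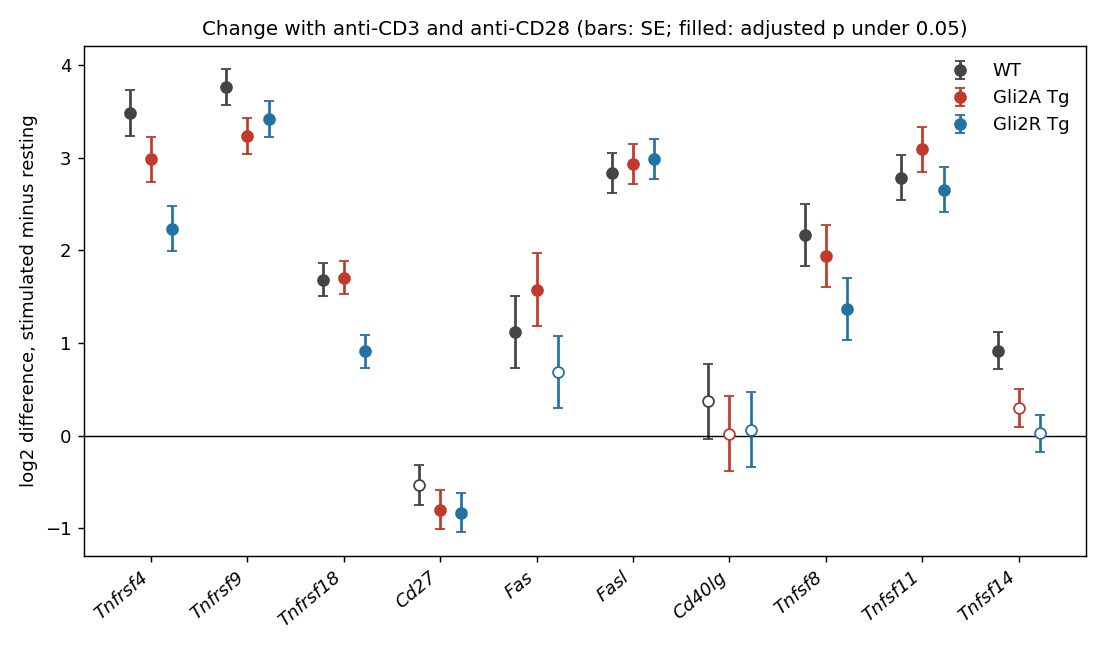
Log2 difference between stimulated and resting cells of each gene in WT, Gli2A Tg and Gli2R Tg cells, with bars for the standard error and filled points where the limma adjusted p was under 0.05. Tnfrsf9 and Tnfrsf4 lead in WT cells at 3.76 and 3.48, and Cd27 lies below 0 in all 3 genotypes.

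For 4 genes more than 1 probe set was on the array, and they did not always give the same difference. For Tnfrsf9, probe set 1428034_a_at rose by 4.46 in WT, 4.75 in Gli2A Tg cells and 4.17 in Gli2R Tg cells, more than the brightest set, while the dim 1421481_at, at 4.56 to 6.36 on all arrays, was not called in any genotype. The second Fasl probe set, 1418803_a_at, rose by 1.48, 1.36 and 1.46 in WT, Gli2A Tg and Gli2R Tg cells. The second Tnfsf11 set, 1451944_a_at, rose by 1.09 in WT cells (limma adjusted p over all probe sets = 0.0215) and was not called in Gli2A Tg (0.77, 0.0950) or Gli2R Tg cells (0.38, 0.429). The Tnfsf14 sets went opposite ways: 1421588_at fell by 1.15 in WT (adjusted p = 0.0178), by 2.30 in Gli2A Tg cells (8.73e-05) and by 2.62 in Gli2R Tg cells (2.55e-05). The stimulated means of 1421588_at, 5.62, 4.89 and 4.63, lay near or below the 5.37 of the gene at the 25th percentile. The sizes of its falls are therefore uncertain. Which of the 2 probe sets follows the Tnfsf14 transcript was not tested, so the direction of Tnfsf14 under stimulation is unsettled here.

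**Figure D3:**
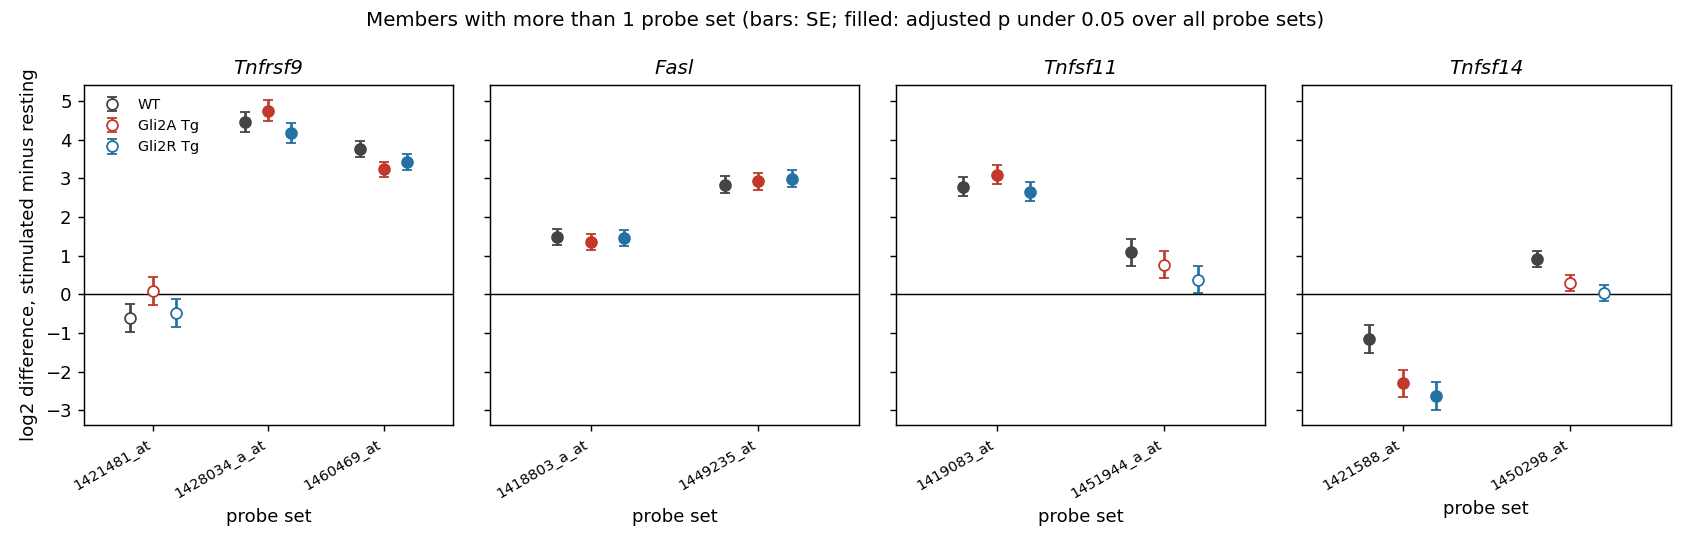
Log2 difference between stimulated and resting cells for each probe set of the 4 genes that have more than 1, with bars for the standard error and filled points where the limma adjusted p over all probe sets was under 0.05. The Fasl and Tnfsf11 sets lie above 0 with different sizes, and the Tnfsf14 sets lie on either side of 0 in WT cells, at -1.15 and 0.92.

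Of the binding partners of these genes, 9 were measured in the same preparations, and Tnfsf18, the ligand of Tnfrsf18, was not among them. The measured ligands of the costimulatory receptors Tnfrsf4, Tnfrsf9 and Cd27 rose in each genotype. Tnfsf4 (OX40L, the ligand of Tnfrsf4) rose by 2.01 ± 0.35 in WT, 2.07 in Gli2A Tg cells and 1.78 in Gli2R Tg cells, and Tnfsf9 (4-1BBL, the ligand of Tnfrsf9) by 2.27 ± 0.24, 2.10 and 1.48. Cd70, the ligand of Cd27, rose by 1.58 ± 0.36, 1.22 and 1.04 from a dim resting level of 5.11 in WT cells, where Cd27 itself did not rise. Tnfrsf14 (HVEM, a receptor of LIGHT) fell by 1.19 in WT (limma adjusted p = 0.0309), 2.11 in Gli2A Tg cells (0.000619) and 2.51 in Gli2R Tg cells (0.000138). Its stimulated means of 5.15, 4.57 and 4.72 lay below the 5.37 of the gene at the 25th percentile. The sizes of these falls are therefore uncertain. Ltbr, the other receptor of LIGHT, fell by 0.70 in Gli2A Tg cells (0.0394), with uncalled differences of -0.30 in WT and 0.60 in Gli2R Tg cells. Cd40, the receptor of CD40L, rose by 1.07 in Gli2A Tg cells (0.0209), and its difference of 0.58 in each of the other genotypes was not called. Tnfrsf11a (RANK) rose by 0.83 in WT cells (0.0247) and was not called in the others. The soluble RANKL decoy receptor Tnfrsf11b and the CD30L receptor Tnfrsf8 were not called in any genotype. Their group means were dim, at 4.36 to 5.17 and 5.31 to 6.50, so this does not show that their RNA was steady. Several of these partners are characteristic of antigen-presenting cells, whose RNA moved with stimulation as given above, and its part in these differences was not tested.

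**Figure D4:**
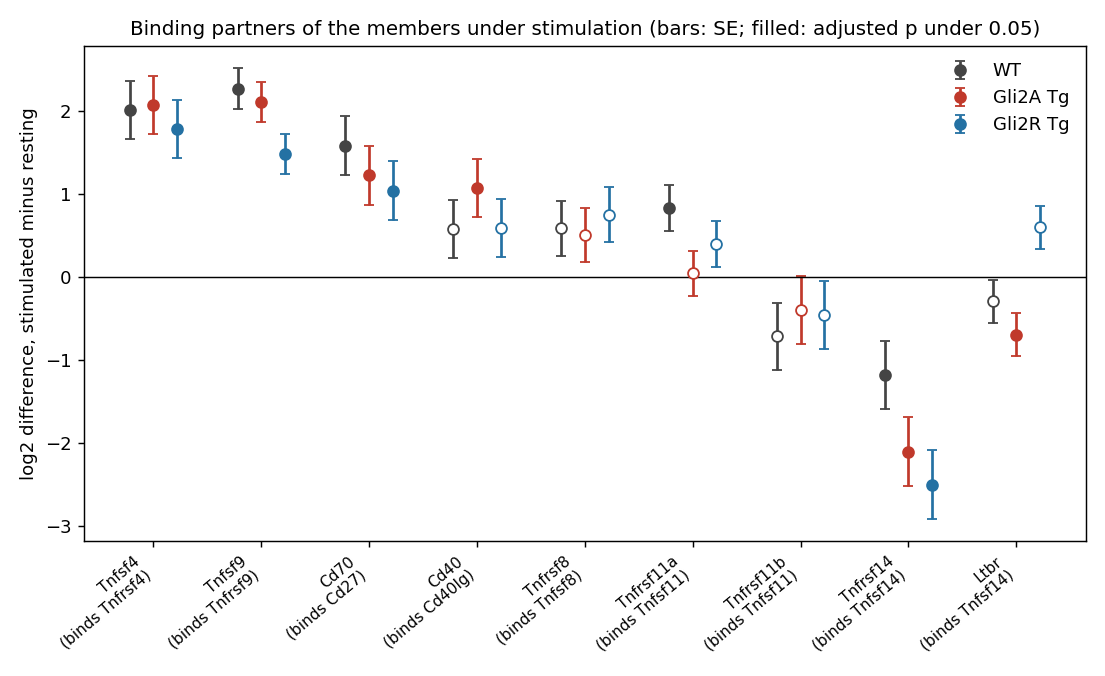
Log2 difference between stimulated and resting cells for the 9 measured binding partners, with bars for the standard error and filled points where the limma adjusted p was under 0.05. Tnfsf4, Tnfsf9 and Cd70 lie above 0 in all 3 genotypes and Tnfrsf14 below 0 in all 3, at -1.19 in WT cells.

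Among 22 other measured receptors of the superfamily, 6 rose and 5 fell in WT, 6 rose and 6 fell in Gli2A Tg, and 3 rose and 5 fell in Gli2R Tg cells, with medians of -0.15, 0.13 and 0.40. These counts include partners named above. For comparison, 19.7% of all genes were called higher and 22% lower in WT cells. These shares were 20.2% and 22.8% in Gli2A Tg and 19.8% and 22.5% in Gli2R Tg cells. Whether these receptors, or the ligands and signalling genes below, differ from those shares was not tested. Tnfrsf12a (Fn14, the TWEAK receptor) rose in each genotype, to mean levels of 9.32 in WT, 8.56 in Gli2A Tg cells and 8.83 in Gli2R Tg cells. Its resting means of 5.02, 4.91 and 5.74 lay near the 5.37 of the gene at the 25th percentile, where background was not separated from signal, so no size is given for its rise. The mean of Tnfrsf21 went from 9.75 in resting to 7.81 in stimulated WT cells. Tnfrsf17 (BCMA) and Tnfrsf13b (TACI), receptors known from the B lineage, fell by 1.84 and 1.69 in WT cells. The stimulated Tnfrsf17 mean of 5.36 lay near the same 5.37, so the size of its fall is uncertain. Beside them the summed intensity of 7 B cell markers was 1389 to 1952 in resting and 411 to 724 in stimulated WT cells, whose part was not tested. Of 9 other ligands 6 rose and 1 fell in each genotype, with medians of 1.58, 1.25 and 1.20. The partners Tnfsf4, Tnfsf9 and Cd70, given above, are among these 6. Tnf rose by 3.97 in WT cells and Lta (lymphotoxin alpha) by 2.83, while Ltb (lymphotoxin beta) fell by 1.64. Of 19 genes of TRAF and death signalling, 9 rose and 4 fell in WT, 9 rose and 3 fell in Gli2A Tg, and 8 rose and 5 fell in Gli2R Tg cells. In WT cells Relb and Nfkb2, subunits of the alternative NF-kB pathway, rose by 2.27 and 2.18, and Tnfaip3 (A20, an inhibitor of NF-kB) by 1.71. The mean of Tank went from 8.82 in resting to 10.62 in stimulated WT cells. Casp8, the caspase that Fas activates, fell by 1.45 there, and Cflar (c-FLIP), which blocks it, rose by 0.74. The medians of this list were 0.23, -0.05 and 0.28.

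Between genotypes the 10 genes differed little in comparison with their response to stimulation. Over 6 genotype comparisons and 10 genes, 1 of 60 differences was called by limma, and 19 had an unadjusted p under 0.05. In resting cells 0 of the 10 genes were called between Gli2A Tg and WT, where 0.550% of all genes were, and 5 had an unadjusted p under 0.05, as did 10.1% of all genes. After stimulation 0 were called between these genotypes (all genes: 0.137%) and 3 had an unadjusted p under 0.05 (all genes: 11.4%). Between Gli2R Tg and WT 0 were called at rest (all genes: 0%) and 4 had an unadjusted p under 0.05 (all genes: 10.3%), and after stimulation 0 were called (all genes: 0.0440%) and 1 had such a p (all genes: 9.21%). Between Gli2A Tg and Gli2R Tg 1 was called at rest (all genes: 2.40%) and 5 had an unadjusted p under 0.05 (all genes: 17.0%), and after stimulation 0 were called (all genes: 0.231%) and 1 had such a p (all genes: 9.16%). The comparisons with WT share the WT arrays and those between the transgenic genotypes use the same arrays again, so they are not independent.

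The called difference was that of Tnfrsf18, which was lower in resting Gli2A Tg than in resting Gli2R Tg cells by 0.86 ± 0.18 on the log2 scale, a difference of 1.81-fold (limma adjusted p = 0.0206). As given above, 11.03 to 11.52 in Gli2A Tg did not overlap 11.98 to 12.31 in Gli2R Tg cells. Resting WT cells lay between them, at 11.42 to 11.92, and differed from neither by a called amount (Gli2A Tg minus WT -0.29, adjusted p = 0.644; Gli2R Tg minus WT 0.57, 0.270). After stimulation the difference between the transgenic genotypes was -0.06 (0.965). The call was lost without resting Gli2A Tg array 3 (adjusted p = 0.0968), resting Gli2R Tg array 1 (0.0644) or array 2 (0.0949), without both arrays that stood apart (0.101), with the 6 compared arrays alone (0.152) and with the mean of the myeloid markers as a covariate (0.318), while the difference stayed between -0.96 and -0.71. Beside it, the mean Foxp3 level at rest was 8.75 for Gli2A Tg and 9.28 for Gli2R Tg cells (difference -0.53, 0.370). Among T cell markers, Cd5 was lower by 0.85 in Gli2A Tg cells (0.0110). Means were also lower in Gli2A Tg than in Gli2R Tg cells for Cd28 (12.22 against 12.97), Cd2 (13.39 against 13.82) and Cd3g (13.80 against 13.96). Cd4 (11.28 against 11.39) and Cd3d (14.80 against 14.86) differed less in the same direction. Only Cd3e went the other way, at 13.36 against 13.29. Summed T cell marker intensity at rest was 66588 to 86098 in Gli2A Tg and 89625 to 96152 in Gli2R Tg cells. The erythroid gene Alas2 was higher by 4.18 in Gli2A Tg cells (0.00194), beside the erythroid sums given above. The part of cell composition beyond the myeloid covariate was not tested.

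Differences between Gli2A Tg and WT cells in either condition were not called for any of the 10 genes, and some are given here as description. Tnfsf8 was lower in Gli2A Tg than in WT cells by 0.97 ± 0.33 at rest (limma adjusted p = 0.292) and by 1.19 after stimulation (0.165), and lower than in resting Gli2R Tg cells by 1.25 (0.0649), none of which was called. Without both arrays that stood apart, its differences from WT were -0.71 (0.436) and -0.84 (0.394). Fasl in Gli2A Tg cells exceeded WT by 0.68 ± 0.21 at rest (0.236) and by 0.77 after stimulation (0.161), also without a call. Its second probe set, 1418803_a_at, lay closer, with means of 7.77 in WT and 8.13 in Gli2A Tg cells at rest. After stimulation these were 9.25 and 9.49, and the arrays of both genotypes overlapped in each condition. Tnfrsf9 in Gli2A Tg cells exceeded WT by 0.62 ± 0.19 at rest (0.236) and differed by 0.09 after stimulation (0.907). Its probe set 1428034_a_at had means of 8.32 in WT and 8.55 in Gli2A Tg cells at rest, and 12.78 and 13.31 after stimulation. On that set the resting arrays of both genotypes overlapped. The stimulated Gli2A Tg arrays, at 13.04 to 13.47, lay above the stimulated WT arrays, at 12.70 to 12.87. For Tnfsf14 the resting difference was 0.56 (0.329), and its probe set 1421588_at had resting means of 6.78 in WT and 7.19 in Gli2A Tg cells. Cd40lg in Gli2A Tg cells differed from WT by -0.60 at rest (0.692) and -0.95 after stimulation (0.392). Its lowest values in each condition, 5.01 and 4.97, came from the arrays that stood apart, and without these the differences were -0.14 and -0.45.

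Cd27 showed the reverse dependence on those arrays. Its resting level in Gli2A Tg exceeded that in WT cells by 0.57 ± 0.21 over all arrays (limma adjusted p = 0.344), with 2 arrays at 12.07 and the third at 11.14. Without both arrays that stood apart the difference was 0.88 and was called (0.00889). A choice to leave out an array that was made after its values were seen cannot count as evidence for the difference.

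Resting Gli2R Tg cells had a higher mean than resting WT cells for all 10 genes, by 0.28 to 0.80 with a median of 0.47, against a median of 0.01 over all genes. Tnfrsf4 differed by 0.80 ± 0.24 (limma adjusted p = 0.257), Tnfsf14 by 0.65 (0.270) and Tnfrsf18 by 0.57 (0.270), and no gene of the array was called in this comparison. The 10 genes were read on the same arrays, so their shared sign is not 10 observations. In the same comparison the mean was higher for 7 of 7 T cell markers (median difference 0.28) and 6 of 6 regulatory T cell markers (0.43), and lower for 8 of 9 myeloid markers (-0.46) and 5 of 6 erythroid markers (-2.0). Whether this makeup accounts for the shared sign was not tested. After stimulation the median difference between the same genotypes was 0.01, with 5 of the 10 genes above 0.

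**Figure D5:**
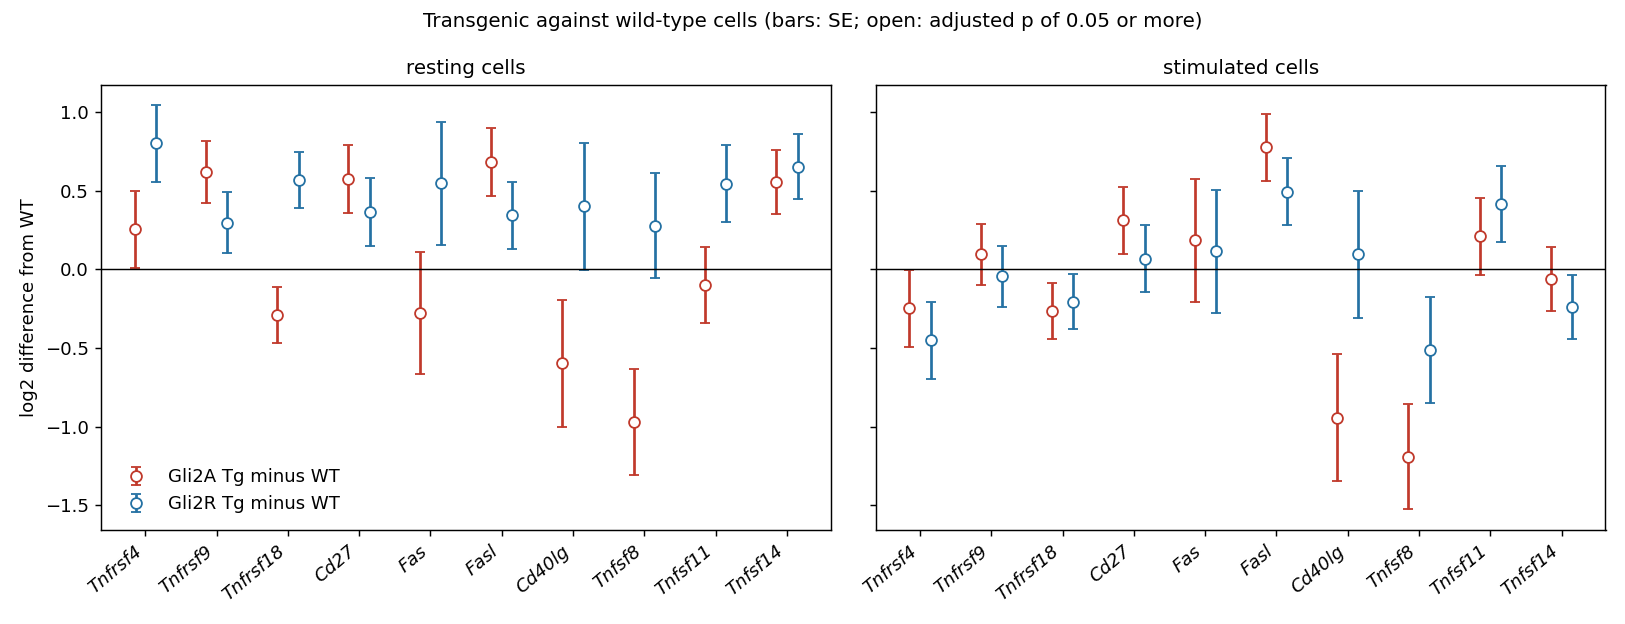
Log2 difference of Gli2A Tg and Gli2R Tg cells from WT cells for each gene, at rest on the left and after stimulation on the right, with bars for the standard error. All points are open because no difference from WT passed a limma adjusted p of 0.05; Tnfsf8 in Gli2A Tg cells is the lowest, at -0.97 and -1.19.

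Differences in the stimulation effect between genotypes were tested as interaction terms, and 0 of 30 were called by limma, with 6 at an unadjusted p under 0.05. Of these 6, 1 was for Gli2A Tg against WT (all genes under that p: 10.1%), 3 for Gli2R Tg against WT (8.65%) and 2 for Gli2A Tg against Gli2R Tg (10.6%). The share of all genes called was 0.0110% for Gli2A Tg against WT, 0% for Gli2R Tg against WT and 0.110% for Gli2A Tg against Gli2R Tg. The largest was that of Tnfrsf4, whose stimulation difference was smaller in Gli2R Tg than in WT cells by 1.25 ± 0.34 on the log2 scale (adjusted p = 0.296). For Tnfsf14 it was smaller by 0.90 (0.382), for Tnfsf8 by 0.79 (0.674) and for Tnfrsf18 by 0.77 (0.383) in Gli2R Tg than in WT cells. The fold differences between genotypes given above for single genes are therefore not shown to differ.

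After these values had been seen, the genotypes were also compared over the mean of both conditions, which uses 6 arrays a genotype. Of 30 such differences 2 were called by limma. Fasl was higher in Gli2A Tg than in WT cells by 0.73 ± 0.15 (adjusted p = 0.0461), in a comparison that called 0.605% of all genes, and Tnfsf8 was lower in Gli2A Tg than in Gli2R Tg cells by 0.96 ± 0.24 (adjusted p = 0.0481), in one that called 2.29%. Between Gli2R Tg and WT cells 0 of the 10 were called (all genes: 0%) and 2 had an unadjusted p under 0.05, as did 10.5% of all genes. That count was 6 between Gli2A Tg and WT (all genes: 11.7%) and 4 between Gli2A Tg and Gli2R Tg cells (16.1%). Against WT, Tnfsf8 in Gli2A Tg cells differed by -1.08 (0.0572). Both calls lie close to the threshold and each passed it in only 8 of 31 alternative settings, with adjusted p between 0.00668 and 0.160 for Fasl and between 0.0128 and 0.187 for Tnfsf8. Without both arrays that stood apart, both calls were lost (0.160 for Fasl and 0.187 for Tnfsf8), and Cd27 was called in their place, higher in Gli2A Tg than in WT cells by 0.67 (0.00545) and than in Gli2R Tg cells by 0.46 (0.0371). The calls of Fasl and Tnfsf8 come from a comparison that was chosen with these differences in view, and they do not add to the single-condition tests, whose arrays they share.

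Genes with the most similar pattern over the 18 arrays were found by Pearson's correlation, which is given as a description because the arrays fall into resting and stimulated sets and share their preparation. The closest to Tnfrsf4 were Irf4 (r = 0.987), a transcription factor of activated lymphocytes, and Il2ra (0.986), the alpha chain of the IL-2 receptor. Tnfrsf9 was closest to Lad1 (0.994), Tnfrsf18 to Pgm3 (0.983), Fasl to Taf1d (0.986) and Tnfsf11 to Gadd45b (0.990). Tnfsf8 was closest to Batf (0.963), an AP-1 family factor of activated T cells. Lower values were reached for Fas (Fbxo28, 0.924), Cd27 (Tbc1d22a, 0.916), Cd40lg (Vsir, 0.881) and Tnfsf14 (Cln3, 0.841), the genes with the smallest or least uniform stimulation differences.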

How the data were processed

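The deposited table held linear intensity values of 45101 probe sets on 18 arrays. Per the submitters' processing notes the affy package (version not given) was used, and in the file each array has a 2% trimmed mean of 500; the step from probes to intensity values by the authors is not given in the sources. Median intensity per array was 55.5 to 76.3, and 3 arrays a group limit the precision. For RNA extraction the labels' protocols give a Stratagene kit as well as Trizol.

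Here 16 was added to each value, log2 was taken and arrays were quantile normalized. Of the probe sets, 34945 had 1 gene symbol, 932 several, 9160 none and 64 were controls; those with 1 symbol gave 18193 genes, each represented by the brightest of its probe sets. Entrez numbers of 34741 matched the RefSeq gene table. A single limma 3.58.1 fit (R 4.3.3; lmFit, eBayes) over all arrays held the 6 group means, with Benjamini-Hochberg adjustment over all genes per comparison. An error given as ± is the SE of a difference, pooled over groups. All 10 member genes were named, with their binding partners. Other genes were taken from lists and are not in each case those with the largest differences. The members and lists were chosen with earlier results of these data known. The 12 comparisons of stimulation, genotype and interaction were fixed in advance of the fits; the 3 means of both conditions and the fit without both arrays that stood apart were added after values were seen. The fit was tested on simulated data. Replicate numbers were not used to pair the arrays in this fit. Over 45 same-number pairs, correlations of deviations from group means were -0.06 to 0.10. However, 12 of 18 arrays correlated best with their own number, so a shared replicate effect is not excluded.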

Additional observations from a re-analysis of the deposited data

How the results depend on the processing

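Of 26 member differences that were called, 746 of 807 values under alternative settings kept direction and call, 60 lost the call and 1 reversed. Of 124 uncalled differences, 32 of 3888 values gained a call in the same direction, and 118 changed sign, 2 of these with a call. All 3 reversals were Tnfsf14 under stimulation read as the mean of its probe sets: -0.12 in WT (adjusted p = 0.737), -1.0 in Gli2A Tg (0.00247) and -1.30 in Gli2R Tg (0.000302), where one probe set fell. Fas in WT was also not called with median centring (0.0603), with the deposited scaling (0.118) or with the compared arrays alone (0.0517). The number of members called in stimulation stayed within 1.5 times under every setting.

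Between resting Gli2A Tg and WT, 1 member was called in place of 0 without both arrays that stood apart (Cd27), and 0 to 1 when single replicates were left out. Between resting Gli2R Tg and WT, array weights called 1 (Tnfrsf4, 1.02, 0.0428). Between resting Gli2A Tg and Gli2R Tg, 2 in place of 1 were called with 64 added, with genes above the median, with trend and robust options and with array weights, 0 with the compared arrays alone, the myeloid covariate or both arrays left out, and 0 to 2 with single replicates left out. In the mean of both conditions of Gli2A Tg against WT, the count of 1 became 0 with median centring, the deposited scaling, 1 added, the mean of probe sets, array weights, the compared arrays alone, the replicate block, an Xist and Y-linked covariate or every probe set tested, 2 with 64 added, genes above the median or trend and robust options, and 0 to 2 with single replicates left out. Without both arrays that stood apart the count stayed at 1, but Fasl was lost and Cd27 gained, and against Gli2R Tg Tnfsf8 was lost and Cd27 gained. In the mean of Gli2A Tg against Gli2R Tg the count became 0 under the same settings other than array weights, 2 with genes above the median, 3 with 64 added or trend and robust options, and 0 to 2 with single replicates left out. The causes were not tested. Median centring moved the median of all genes by 0.13 in WT and 0.11 in Gli2A Tg stimulation, and by -0.11 and -0.12 in stimulated Gli2R Tg against WT and its interaction.

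The replicate number as a block, where 12 of 18 arrays correlated best with their own number, left the members called in other comparisons at the same counts. Signal over background limits Cd40lg and the dim second probe sets. The 3 arrays a group limit the precision of every difference.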
